A study of Mus musculus with 1037 samples.

Results

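The 10 genes described here act in the Wnt pathway of the mouse hair follicle and were taken by name from the 55335 gene rows of a single-cell RNA table. They were Axin2, Lef1 and Ctnnb1, which act inside the cell, the receptor Lgr4 and the ligands Wnt4, Wnt7b and Wnt10a. The set also held Dkk3, Sfrp1 and Wif1, which encode secreted proteins and were listed as inhibitors. All 10 rows were found by their Ensembl identifiers, and their levels were followed through late anagen and late catagen. The set was proposed with earlier results of these data known, so its choice may not be independent of the measured values.

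RNA was read by Smart-seq2, which makes a full-length library from each sorted cell in its own well. Every cell was wild type and came from back skin, was labelled as hair follicle epithelium, and belonged to a pool of several mice in which no animal was named. At AnaVI, the late growth phase (postnatal day 15), LOS was the lower outer root sheath, whereas MOS and UOS both carried the label of the upper-middle outer root sheath. At CatVI, a late step of regression (day 17), the upper outer root sheath was sorted into plates titled PhagoHFSC alive (plates 1 and 2), PhagoHFSC apop (plate 5) and NonPhagoHFSC apop (plate 6), and at CatVII (day 18) into OSalive and OSapop. The outer root sheath is the outer epithelial layer of the follicle, and its upper part holds the stem cells of the hair follicle (HFSCs). The study gated cells on CD34 and integrin alpha 6 after discarding Sca1-positive cells and cells with surface markers of endothelium, melanocytes, fibroblasts and blood, and took live cells as negative for annexin V. What Phago, NonPhago and the letter f in the plate titles stand for is not spelled out in the labels. Between stages, region label, sort, pool and library preparation moved together with stage, so they cannot be told apart. Each sort or plate counted as 1 sample with no replicate and no test. Where several groups are set against UOS, they share that control.

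A cell entered if 2000 or more genes were detected in it, which left 463 cells in 9 groups. LOS kept 39 cells, MOS 38, plate 1 kept 19, plate 2 kept 9, plate 5 kept 15, plate 6 kept 14 and OSapop kept 92, and the others were in UOS and OSalive. The share of cells that passed was 41.9% in LOS, 52.8% in MOS, 83.6% in UOS, 80.1% in OSalive and 65.2% in OSapop but only 12.3% to 21.6% in these CatVI plates. No cell of plates 3 and 4, titled NonPhagoHFSC alive, passed. Levels are summed counts scaled to 1000000 (CPM) over the counts of annotated genes, which numbered from 441410 (plate 6) to 55537430 (OSalive) per group. Annotated genes held 19.3% to 28.7% of all gene counts, since 1 identifier without a symbol held 56.3% to 66.5%. Intervals are at 95% and cover counting error only, and since reads carried no molecular identifiers they are not independent molecules. In 3 groups (UOS, OSalive and OSapop), 99 well labels were each held by 2 or more passing cells, and the labels name no plate that would separate them.

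The tissue label was checked against 7 markers of the outer root sheath (Krt5, Krt14, Krt15, Krt17, Sox9, Itga6 and Itgb1), none of which was at 0 in any group. Their summed level ran from 3838 CPM in plate 2 to 26179 CPM in plate 5, with 5415 CPM in LOS and 15995 CPM in UOS. Cd34, used for the gate, stood at 321 CPM in UOS, 575 CPM in OSalive and 481 CPM in OSapop, but at 5.73 CPM in plate 1, 33.8 CPM in plate 2, 7.05 CPM in plate 5 and 9.06 CPM in plate 6. Markers of other lineages (fibroblasts, melanocytes, endothelium, immune cells, inner root sheath and hair shaft) led in 11 of 39 LOS cells, which held 53.1% of the LOS counts, and in 7 UOS cells (6.25%), which held 13.6%. The 6 fibroblast genes summed to 5572 CPM in LOS against 1411 CPM in UOS and 976 CPM in OSalive, and the 5 melanocyte genes to 615 CPM in LOS and 592 CPM in plate 2 against 48.6 CPM in UOS.

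Wnt ligands bind Frizzled and Lrp receptors and thereby keep beta-catenin, the product of Ctnnb1, from being degraded, so that it enters the nucleus and joins factors of the Tcf and Lef family to switch on targets such as Axin2. Secreted proteins of the Sfrp and Wif families and some of the Dkk family hold the pathway down outside the cell, and Axin2 holds it down inside. In the follicle, Wnt signals drive the start of new hair growth and the making of the hair shaft, whereas the resting bulge is known for its high content of Wnt inhibitors.

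The promoters of Axin2 and Lef1 are shown because Axin2 is the usual readout of the pathway and Lef1 one of the factors that carry it out, and because both were about equally higher in OSalive than in UOS. The 300 bases before the canonical start of every one of 21770 protein-coding genes of GENCODE vM39 were searched on both strands for the Tcf and Lef motif, spelled CTTTGAT or CTTTGTT. None of the 10 genes held either spelling, against 9.48% of all promoters. After that result was known, CTTTGAA and CTTTGTA were added: 1 of the 10 genes, Axin2, then held a match (CTTTGAA, on the strand of the gene, beginning 22 bases before the start), against 18.1% of all promoters for any of the 4 spellings and 5.95% for CTTTGAA alone. Capitals mark the match. The Axin2 stretch lies at chr11:108811388-108811625 (GRCm39, plus strand), from 250 to 13 bases before that start, and was cut to leave out exons of other Axin2 transcripts. The Lef1 stretch, at chr3:130903619-130903918 (plus strand), covers the 300 bases before its start and lies within an exon of the antisense gene Lef1os1.
Axin2: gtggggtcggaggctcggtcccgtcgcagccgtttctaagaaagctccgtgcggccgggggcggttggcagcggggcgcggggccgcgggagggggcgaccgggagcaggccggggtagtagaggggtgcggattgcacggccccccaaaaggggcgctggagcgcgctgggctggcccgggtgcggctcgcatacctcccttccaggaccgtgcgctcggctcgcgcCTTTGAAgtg
Lef1: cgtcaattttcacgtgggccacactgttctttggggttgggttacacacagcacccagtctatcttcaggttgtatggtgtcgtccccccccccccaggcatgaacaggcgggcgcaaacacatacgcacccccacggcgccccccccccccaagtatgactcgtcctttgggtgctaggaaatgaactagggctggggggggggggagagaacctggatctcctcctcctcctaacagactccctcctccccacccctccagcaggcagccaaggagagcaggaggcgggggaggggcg
These letters say only what lies in the window, and no binding was measured. The Axin2 window was the richer in CG pairs, with 34 in 300 bases and 70.7% G or C, against 11 pairs and 63% for Lef1 and a median of 9 pairs and 52.3% over all promoters.

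Axin2 (chr11:108811169-108841609, plus strand) encodes a scaffold of the complex that degrades beta-catenin and is itself a Wnt target. Its level was 48.9 CPM in LOS, 8.02 CPM in MOS, 22.6 CPM in UOS, 19.3 CPM in plate 1, 16.9 CPM in plate 2, 3.52 CPM in plate 5, 20.4 CPM in plate 6, 63.4 CPM in OSalive and 102.2 CPM in OSapop. The CatVII sorts were thus the highest and plate 5, with 4 counts from 1 cell, the lowest, while the intervals of UOS (20.4 to 24.97 CPM), plate 1 (12.8 to 28.1 CPM), plate 2 and plate 6 overlapped. A summed level cannot tell fewer expressing cells from less RNA per cell, so the share of cells with a count was also taken after thinning each cell to 50000 counts. On that footing Axin2 was found in 18.6% of 86 UOS cells, 51.2% of OSalive cells and 56.5% of 62 OSapop cells (Clopper-Pearson intervals 11% to 28.4%, 42% to 60.3% and 43.3% to 69%), and in 52.9% of the 17 LOS cells deep enough to enter. Without thinning the shares were 17.9%, 62.4%, 54.3% and 33.3% in the same order, at median depths of 108328, 415779, 91167 and 31124 counts per cell.

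Lef1 (chr3:130903919-131018005, plus strand) encodes a DNA-binding partner of beta-catenin. It stood at 38.9 CPM in LOS, 11.2 CPM in MOS, 17.1 CPM in UOS, 82.4 CPM in plate 1, 47.7 CPM in plate 2, 17.6 CPM in plate 5, 99.7 CPM in plate 6, 46.9 CPM in OSalive and 20.02 CPM in OSapop. Plates 1 and 6 were the highest, and their intervals (68.01 to 98.9 and 72.4 to 133.8 CPM) overlapped. UOS, plate 5 and OSapop lay together near the low end, and the interval of MOS (6.95 to 17.2 CPM) overlapped those of UOS and plate 5 but not that of OSapop. Lef1os1, on the opposite strand, shares 16.3% of the exonic bases of Lef1, and this kit does not mark strand, so reads of the pair cannot be told apart there.

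Ctnnb1 (chr9:120757422-120789579, plus strand) was the steadiest of the 10 genes, at 668 CPM in LOS, 555 CPM in MOS, 613 CPM in UOS, 859 CPM in plate 1, 514 CPM in plate 2, 1345 CPM in plate 5, 768 CPM in plate 6, 642 CPM in OSalive and 639 CPM in OSapop. Plate 5 alone stood above 1000 CPM, and OSalive and OSapop had overlapping intervals. At least 1 count was found in every cell of MOS, plate 5 and OSapop. The overlap with Ulk4 on the other strand covers 9.37% of its exonic bases.

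Lgr4 (chr2:109747839-109844609, plus strand), a receptor for R-spondins, which raise the sensitivity of cells to Wnt, measured 140 CPM in LOS, 202.2 CPM in MOS, 234.4 CPM in UOS, 211.3 CPM in plate 1, 130.7 CPM in plate 2, 498 CPM in plate 5, 280.9 CPM in plate 6, 206.2 CPM in OSalive and 234.3 CPM in OSapop. UOS and OSapop had overlapping intervals, plate 5 was the highest, and LOS and plate 2 shared the low end with overlapping intervals.

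Dkk3 (chr7:111712904-111758760, minus strand) encodes a secreted protein of the Dickkopf family. It was at 135.1 CPM in LOS, 308 CPM in MOS, 378 CPM in UOS, 58.7 CPM in plate 1, 292.1 CPM in plate 2, 7.93 CPM in plate 5, 113.3 CPM in plate 6, 709 CPM in OSalive and 756 CPM in OSapop. The CatVII sorts were the highest and plate 5, where 9 counts came from 1 cell, the lowest. In plate 2, 1 cell gave 86.3% of the counts. The median cell held 319 CPM in UOS, 558 CPM in OSalive and 533 CPM in OSapop, but 0 in each of the 4 CatVI plates.

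Sfrp1 (chr8:23901263-23939648, plus strand) encodes a soluble decoy for Wnt ligands and is a known marker of bulge stem cells. Its level was 384 CPM in LOS, 526 CPM in MOS, 999 CPM in UOS, 57.3 CPM in plate 1, 41.5 CPM in plate 2, 68.7 CPM in plate 5, 88.4 CPM in plate 6, 465 CPM in OSalive and 274.5 CPM in OSapop. All 4 CatVI plates lay under all 5 other groups. After thinning, 98.8% of UOS cells held a Sfrp1 count, against 82.1% in OSalive, 77.4% in OSapop, 61.5% of the 13 cells of plate 1 and 72.7% of the 11 cells of plate 5. Cd34, another bulge gene, was also lowest in the 4 CatVI plates (5.73 to 33.8 CPM), and its part in this was not tested. The other bulge markers were not alike. In the PhagoHFSC alive plates the log2 ratio to UOS was 2.90 for Lgr5 and 0.78 for Nfatc1, but -0.45 for Tbx1 and -2.62 for Lhx2.

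Wif1 (chr10:120869865-120936555, plus strand) encodes a protein that binds Wnt ligands outside the cell. It was at 33.1 CPM in OSalive, 15.5 CPM in LOS, 9.06 CPM in plate 6, 4.71 CPM in OSapop and 2.10 CPM in UOS. It had no count in MOS and plates 1, 2 and 5, where the exact upper limits are 1.97, 2.64, 5.67 and 3.25 CPM. Its counts came from few cells: 19 (15.2%) in OSalive, 7 (6.25%) in UOS, 6 (6.52%) in OSapop, 3 of 39 in LOS, where 1 cell gave 80.95%, and 1 of 14 in plate 6.

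**Figure D1:**
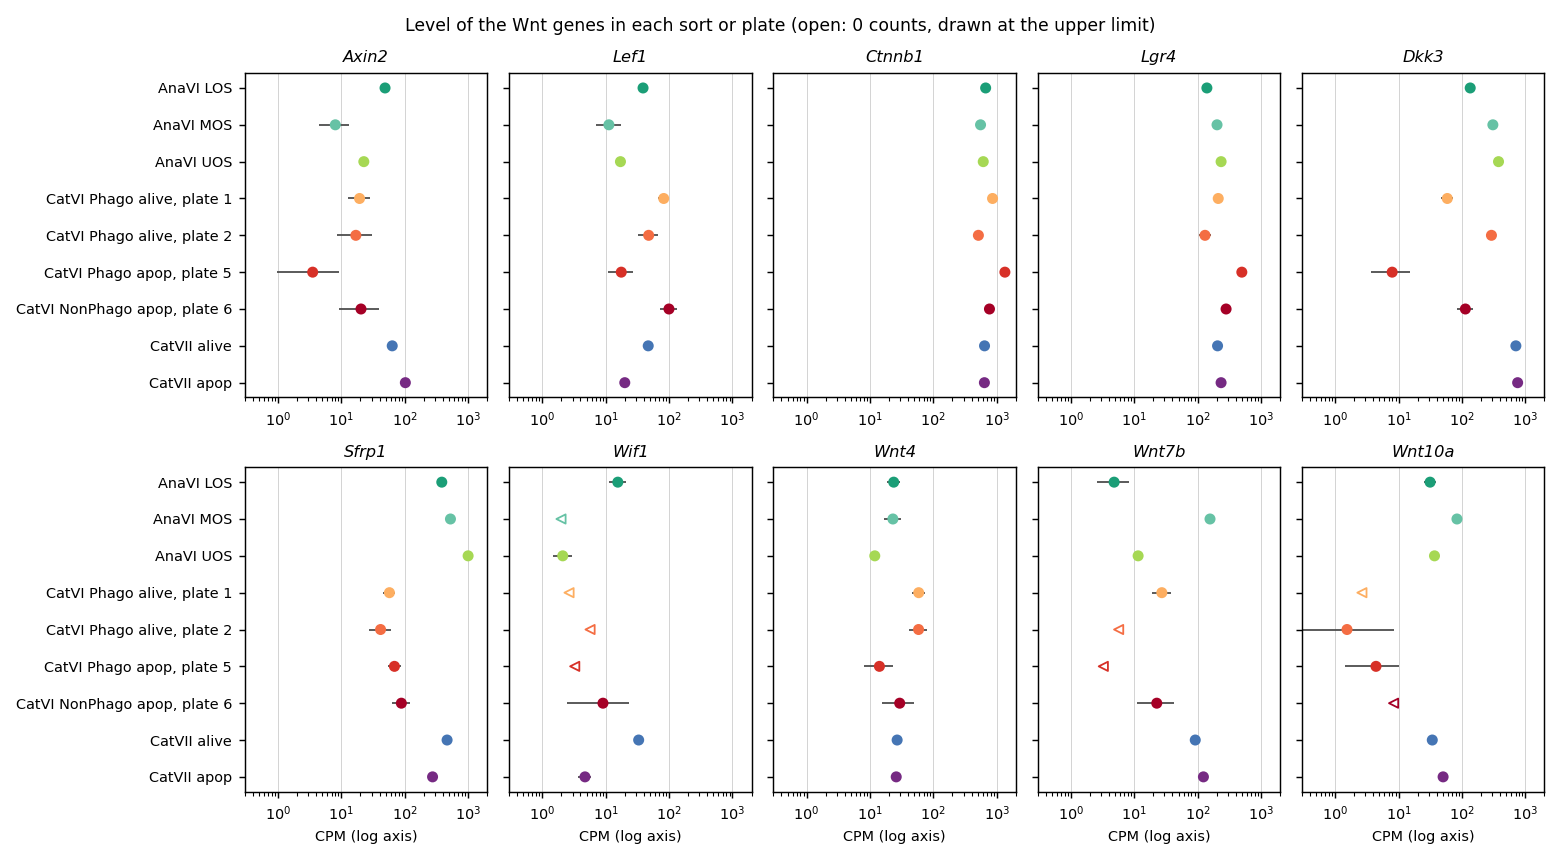
Level of each of the 10 Wnt genes in the 9 groups, in CPM of annotated counts on a log axis. Points are group levels, bars are exact Poisson intervals at 95%, and open triangles mark groups with 0 counts at the upper limit. Sfrp1 lies between 41.5 and 88.4 CPM in the 4 CatVI plates and between 274.5 and 999 CPM in the other groups.

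Among the ligands, Wnt4 (chr4:137004373-137027037, plus strand) was at 23.7 CPM in LOS, 23.003 CPM in MOS, 11.9 CPM in UOS, 58.7 CPM in plate 1, 58.4 CPM in plate 2, 14.1 CPM in plate 5, 29.5 CPM in plate 6, 26.8 CPM in OSalive and 25.96 CPM in OSapop. The PhagoHFSC alive plates were the highest, and UOS and plate 5 the lowest, with overlapping intervals. LOS, MOS, plate 6, OSalive and OSapop had overlapping intervals.

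Wnt7b (chr15:85419638-85466674, minus strand) was carried by a minority of cells in every group. It was at 4.81 CPM in LOS, 156.7 CPM in MOS, 11.5 CPM in UOS, 27.2 CPM in plate 1, 22.7 CPM in plate 6, 91.7 CPM in OSalive and 123.4 CPM in OSapop, with no count in plates 2 and 5. The high level of MOS came from 8 of 38 cells, of which 1 gave 39.6% of the counts. Counts were found in 25 cells of OSalive, 21 of OSapop and 12 of UOS. After thinning the shares were 20.3% (13.6% to 28.5%), 25.8% (15.5% to 38.5%) and 9.30% (4.10% to 17.5%). These intervals overlapped, which does not show that the shares were alike, and the difference was not tested.

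Wnt10a (chr1:74830675-74844355, plus strand) was at 31.5 CPM in LOS, 83.5 CPM in MOS, 36.9 CPM in UOS, 34.1 CPM in OSalive and 50.4 CPM in OSapop. In the CatVI plates it was nearly undetected, with no count in plates 1 and 6, 1 count in plate 2 and 5 counts from 1 cell in plate 5 (4.41 CPM). LOS, UOS and OSalive had overlapping intervals, and MOS was the highest. In the thinned cells it was found in 33.7% of UOS, 26.02% of OSalive and 38.7% of OSapop, but in 0 of 13 cells of plate 1, with an exact upper limit of 24.7%.

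Between genes, levels are comparable only per length. In UOS, Sfrp1 led with 215.9 CPM per kb of its canonical transcript, followed by Ctnnb1 (168.2), Dkk3 (63.1), Lgr4 (44.9), Wnt10a (15.0), Lef1 (6.72), Axin2 (5.10), Wnt7b (3.29), Wnt4 (2.58) and Wif1 (0.916). In OSalive the order was led by Ctnnb1 with 176.3 CPM per kb, then Dkk3 (118.4), Sfrp1 (100.6), Lgr4 (39.5), Wnt7b (26.2), Lef1 (18.4), Wif1 (14.5), Axin2 (14.3), Wnt10a (13.8) and Wnt4 (5.81). Sfrp1 passed from the top of the list to below both Ctnnb1 and Dkk3, and Wnt7b from the third lowest to the fifth highest.

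**Figure D2:**
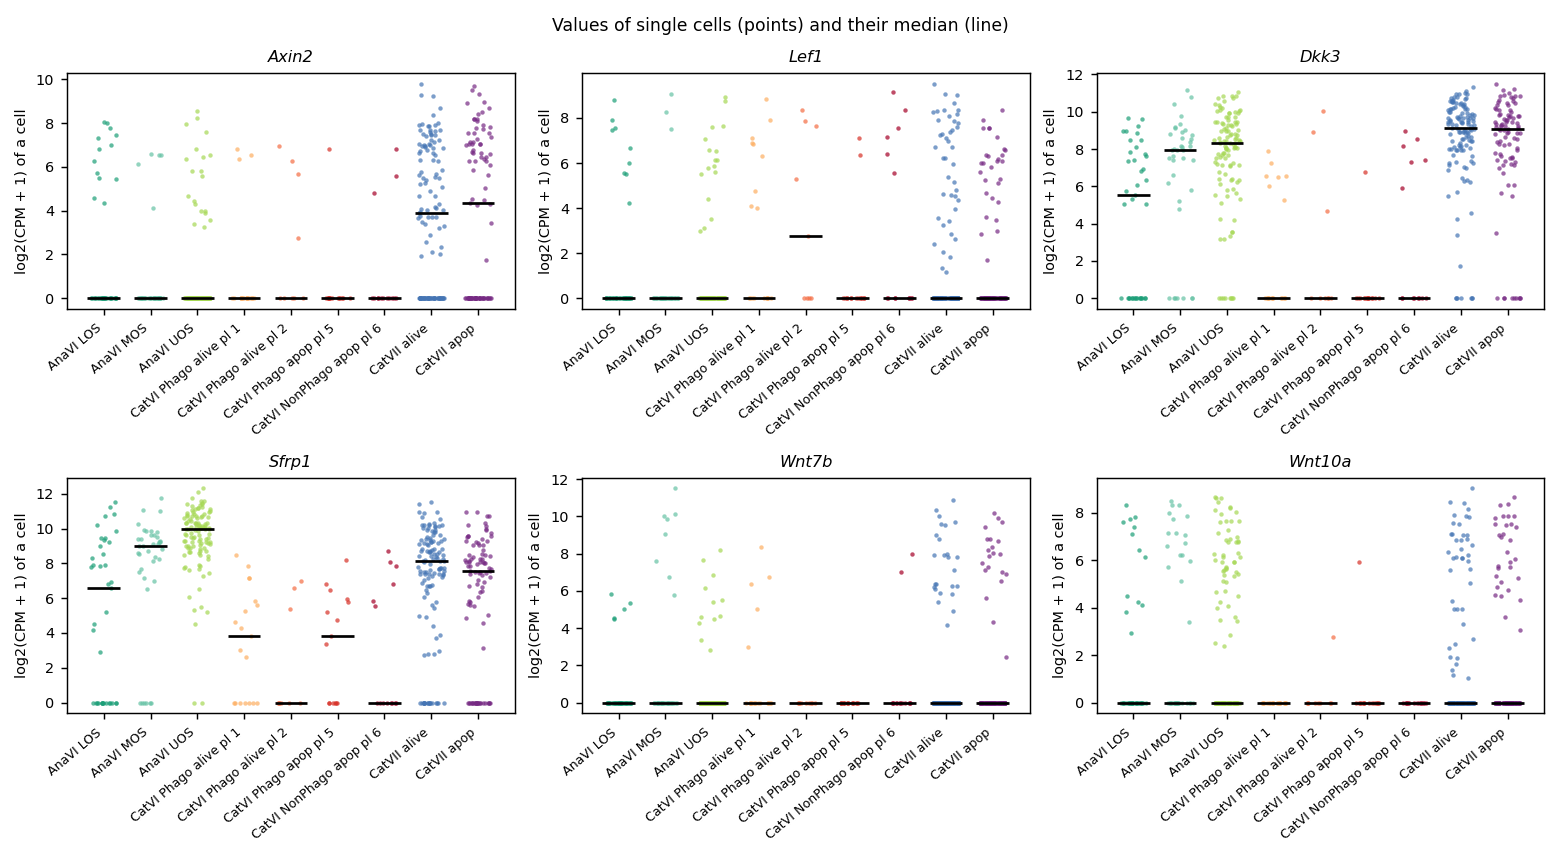
Values of single cells for 6 of the genes in the 9 groups, as log2(CPM + 1) of each cell. Each point is a cell and the black line is the median cell. The median Axin2 value is above 0 only in OSalive and OSapop, and the median Dkk3 value is 0 in the 4 CatVI plates.

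The main question of the stage comparison is how live cells differ between late catagen and late anagen. OSalive was labelled upper and UOS upper-middle outer root sheath, so region label and stage cannot be told apart here. Between OSalive and UOS, Axin2 and Lef1, which act inside the cell, were about equally higher in OSalive. Axin2 was at a log2 ratio of 1.49 (95% interval 1.34 to 1.64) and Lef1 at 1.46 (1.28 to 1.63), whereas Ctnnb1, which encodes beta-catenin, was at 0.07. The ligands Wnt7b (2.99, 2.79 to 3.21) and Wnt4 (1.17, 0.96 to 1.39) were also higher, and Wnt10a was at -0.12. The genes listed as inhibitors were split. Wif1 was higher by 3.98 (3.50 to 4.50) and Dkk3 by 0.91 (0.87 to 0.95), and Sfrp1 was lower, at -1.10 (-1.13 to -1.07). Lgr4 was at -0.19.

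Of the 10 genes, 5 were at least 2-fold higher in OSalive and 1 was at least 2-fold lower, where 16.8% of the 14078 genes that reached 100 counts in the pair were higher by that much and 18.7% lower (35.5% in either direction). The median log2 ratio of the 10 genes was 1.04 and that of all genes 0.05. The inner root sheath and hair shaft list stood at 3173 CPM in UOS and 16.3 CPM in OSalive, and the cells led by other lineages held 33.6% of the UOS counts of Axin2 and 33.8% of those of Lef1. Leaving these cells out, the log2 ratios were 1.86 for Axin2, 1.85 for Lef1 and -1.26 for Sfrp1. With the total over all gene counts in place of annotated genes every ratio is lower by 0.37, which puts Wnt4 at 0.80, under 2-fold.

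**Figure D3:**
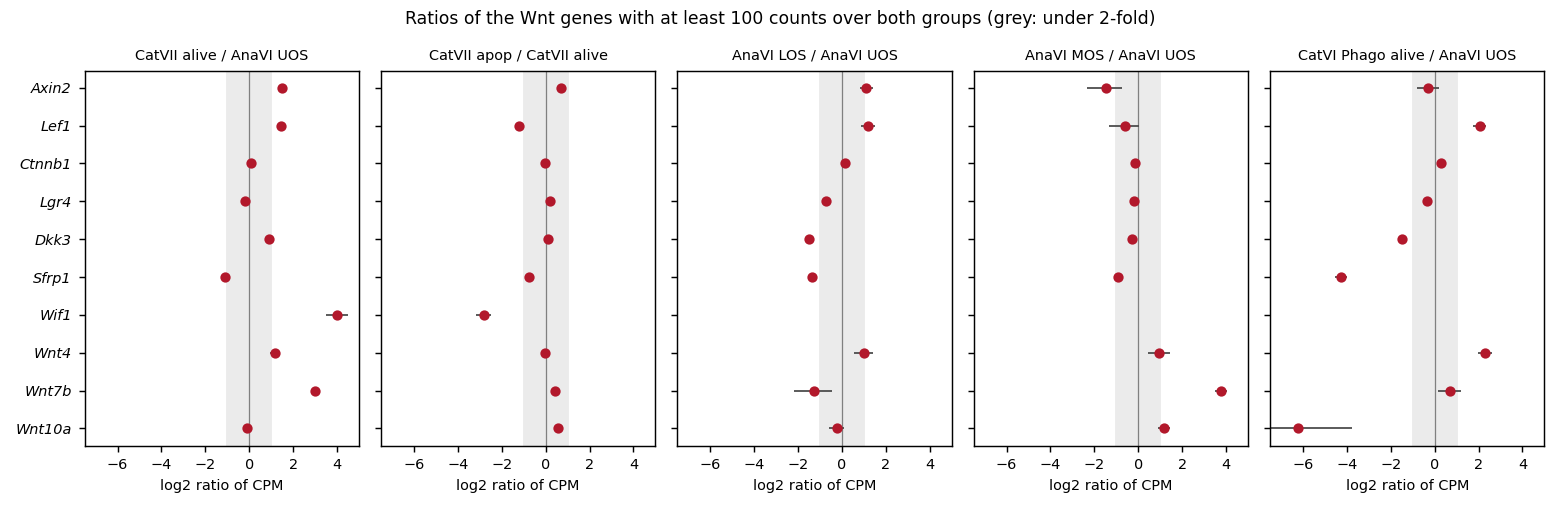
Log2 ratio of CPM of the 10 genes in 5 comparisons, with exact binomial intervals at 95% cut at the left edge of the axis, for genes that reached 100 counts in the pair. The grey band marks less than 2-fold. Sfrp1 is lower than in UOS in OSalive (-1.10), LOS (-1.38), MOS (-0.93) and the PhagoHFSC alive plates (-4.26), which all share the UOS control.

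Within CatVII, 8 of the 10 genes lay within 2-fold between the cells titled apop and those titled alive. Lef1 was lower in OSapop by a log2 ratio of -1.23 (-1.40 to -1.06) and Wif1 by -2.81 (-3.17 to -2.48), and these were the 2 of 10 genes past 2-fold, where 13% of 13806 genes were at least 2-fold lower and 8.6% higher (21.6% in either direction). Axin2, by contrast, was at 0.69 (0.60 to 0.77). Sfrp1 was at -0.76, Wnt10a at 0.57 and Wnt7b at 0.43, and Ctnnb1, Dkk3, Wnt4 and Lgr4 lay between -0.05 and 0.18. The median cell held 275.2 CPM of Sfrp1 in OSalive and 184.3 CPM in OSapop. After thinning, Lef1 was found in 26.02% of OSalive cells and 30.6% of OSapop cells, so the lower summed Lef1 level did not go with a smaller share of cells. The Wif1 level of OSalive rests on 19 cells, of which 1 gave 20.5% of the counts.

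Across the anagen follicle, LOS held more Axin2 (log2 ratio to UOS 1.11, 0.82 to 1.40) and Lef1 (1.18, 0.85 to 1.51) and less Dkk3 (-1.48), Sfrp1 (-1.38) and Wnt7b (-1.26, 13 counts in LOS). Of 9 genes with enough counts, 2 were at least 2-fold higher and 3 lower, against 14% and 14.5% of 11418 genes (28.4% in either direction). Wnt4 was at 0.99, Lgr4 at -0.74, Wnt10a at -0.23 and Ctnnb1 at 0.13, and Wif1 had too few counts. The LOS cells led by other lineages held 41.7% of the Axin2 counts and 36.2% of the Lef1 counts but 0.386% of the Sfrp1 counts. Without such cells in both groups, Axin2 was at 1.81, Lef1 at 2.01 and Wnt4 at 1.77, whereas Sfrp1 was at -0.46 and Dkk3 at -0.83, both then under 2-fold. With the TMM scaling of edgeR all ratios to UOS are lower by 0.30 and neither Axin2 (0.82) nor Lef1 (0.89) reached 2-fold, which left 0 genes higher and 4 lower. As the mean over cells, Lef1 (0.91) and Wnt7b (-0.81) were under 2-fold. Wnt4 (34.4 CPM in LOS against 11.2 CPM in UOS) and Lgr4 (120.8 against 255.8 CPM) were then past it.

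MOS and UOS carry the same region label yet differed in several of these genes. Wnt7b was higher in MOS by 3.77 (3.50 to 4.04) and Wnt10a by 1.18 (0.92 to 1.43), and Axin2 was lower, at -1.49 (-2.35 to -0.75, 15 counts in MOS). These were the 3 of 9 genes past 2-fold, where 9.38% of 11059 genes were higher by that much and 18.9% lower (28.3% in either direction). Wnt4 was at 0.95 and Sfrp1 at -0.93. Lef1 was at -0.61 on the summed counts, from 21 counts in 3 of 38 cells, but at 0.58 when each cell was given equal weight, so its direction is not settled at this depth. As the mean over cells, Axin2 was at -0.72 and Wnt10a at 0.35, both no longer past 2-fold, and Wnt4 was at 1.42. With the total over all gene counts Wnt10a was at 0.98, and 1 of the 9 genes was higher and 2 were lower by 2-fold or more. Without the cells led by other lineages, 7 of which were in UOS and 0 in MOS, 5 genes were past 2-fold, with Wnt4 at 1.14 and Sfrp1 at -1.09 in addition.

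The PhagoHFSC alive plates of CatVI, summed, held far less of the inhibitor Sfrp1 and the ligand Wnt10a than UOS and more of Wnt4 and Lef1. Sfrp1 was 19.1-fold lower, at 52.3 CPM against 999 CPM (log2 ratio -4.26, -4.54 to -3.98). Wnt10a had 1 count against 632 (log2 ratio -6.24, -11.5 to -3.76) and Dkk3 was at -1.51, but the plates disagreed on it, with -2.69 in plate 1 alone and -0.37, under 2-fold, in plate 2 alone. Wnt4 (2.30, 1.96 to 2.63) and Lef1 (2.06, 1.76 to 2.35) were higher, and Wnt7b was at 0.69, from plate 1 only, Ctnnb1 at 0.29, Axin2 at -0.28 and Lgr4 at -0.34. Of 9 genes, 2 were thus at least 2-fold higher and 3 lower, against 13.6% and 30% of 11226 genes (43.6% in either direction), whose own median was -0.29.

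The plates of CatVI differed among themselves, which limits what a plate can show. Plates 1 and 2 carry the same title, and of 6 genes with enough counts Dkk3 was higher in plate 2 by 2.31 (1.93 to 2.71) and the others lay between -0.79 and -0.01, while 10.3% of 3773 genes were at least 2-fold higher in plate 2 and 37.1% lower (47.3% in either direction). The melanocyte markers summed to 592 CPM in plate 2 and 7.88 CPM in plate 1, and cells led by other lineages held 42.4% and 6.42% of their counts.

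Against plates 1 and 2, plate 5 (PhagoHFSC apop) held more Lgr4 (1.42, 1.23 to 1.61) and less Dkk3 (-4.07, -5.21 to -3.12), Wnt4 (-2.06, -2.91 to -1.30) and Lef1 (-2.02, -2.77 to -1.34). These were 4 of 6 genes, where 11.9% of 5232 genes were at least 2-fold higher and 20.6% lower (32.6% in either direction). Dkk3 had 9 counts in plate 5 against 82 in plate 1 and 190 in plate 2, and 1 cell gave 86.3% of the latter. With plate 1 alone as the base, 4 genes had enough counts and Lef1 (-2.22) and Lgr4 (1.24) were past 2-fold. Dkk3 (7.93 against 58.7 CPM) and Wnt4 (14.1 against 58.7 CPM) then lay under the minimum of counts. As the mean over cells, Lgr4 was at 0.95. Between plate 6 (NonPhagoHFSC apop) and plate 5, only Ctnnb1 (-0.81), Lgr4 (-0.83) and Sfrp1 (0.36) had enough counts, and none of the 3 was past 2-fold, against 8.58% of 2822 genes higher and 20.4% lower (29% in either direction).

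Of 80 further genes of the pathway, listed by role, 61 had enough counts in OSalive and UOS together. Of these, 20 were at least 2-fold higher in OSalive and 8 lower, beside 16.8% and 18.7% of all genes compared, with a median log2 ratio of 0.46 against 0.05 over all genes. The receptors included Lgr5, the stem cell marker and R-spondin receptor, at 1321 CPM in OSalive and 157.6 CPM in UOS (log2 ratio 3.07, 3.01 to 3.12), and its relative Lgr6 at 562 and 105.1 CPM (2.42). Lgr5 was at 1529 CPM in plate 1, 432 CPM in plate 2, 539 CPM in plate 5 and 822 CPM in plate 6, so all 4 CatVI plates and both CatVII sorts stood above the 150.998 CPM of LOS, the 353 CPM of MOS and the 157.6 CPM of UOS. Lgr6 did not follow it in CatVI, with 29.4 CPM in plate 1, 40.8 CPM in plate 6 and no count in plates 2 and 5. Of 18 receptors and coreceptors, 5 were at least 2-fold higher in OSalive and 3 lower, among them Fzd10, at 4.97 against 32.5 CPM (-2.71).

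Of 7 ligands outside the 10 genes, 1 was at least 2-fold higher in OSalive than in UOS and 3 were lower. Of all genes compared, 16.8% were higher by that much and 18.7% lower. Wnt5a, a ligand best known for signalling without beta-catenin, was at 96.2 CPM in LOS, 21.5 CPM in UOS and 9.63 CPM in MOS but at 0.810 CPM in OSalive (log2 ratio to UOS -4.73, -5.21 to -4.28) and at 1.81 CPM in OSapop. Wnt16 had 1 count in UOS and 325 in OSalive (6.65, 4.16 to 11.96), and was at 56.2 CPM in MOS. Wnt9a was highest in plate 6 (108.7 CPM) and MOS (57.8 CPM), at 10.3 CPM in UOS and 6.27 CPM in OSalive. Wls and Porcn, which are needed to release Wnt proteins, were at -0.10 and 0.13 between OSalive and UOS.

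Inhibitors and turnover factors were higher in part. Of 6 inhibitors, 2 were at least 2-fold higher in OSalive and 1 lower, where 16.8% and 18.7% of all genes were. Sostdc1, which antagonizes both BMP and Wnt signals, was at 291.7 CPM in OSalive and 134.2 CPM in UOS (1.12), and Notum, an enzyme that inactivates Wnt proteins, at 4.18 and 0.292 CPM (3.84), with no count in OSapop. Apcdd1, a membrane-bound inhibitor, was at 208.1 CPM in MOS, 44.2 CPM in UOS and 43.7 CPM in OSalive. Rnf43 and Znrf3, ligases that remove Frizzled receptors from the surface, were at 1.38 and 0.79 between OSalive and UOS, and Znrf3 was highest in LOS (140 CPM).

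Inside the cell, 3 of 9 transducers, 5 of 11 nuclear factors and 3 of 6 targets were at least 2-fold higher in OSalive, where 16.8% of all genes were, and 1 target was lower, where 18.7% were. Apc, a scaffold of the complex that degrades beta-catenin, was at 205.9 against 122.6 CPM (0.75), and Csnk1a1, a kinase of that complex, at 327 against 449 CPM (-0.46). Bcl9l, a cofactor of beta-catenin, was at 583 against 276.1 CPM (1.08), and Tle3, a corepressor, at 108.8 against 168.4 CPM (-0.63). Of the targets named here, Myc was at 143.4 against 68.1 CPM (1.07) and Cd44 at 287.8 against 260.5 CPM (0.14).

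**Figure D4:**
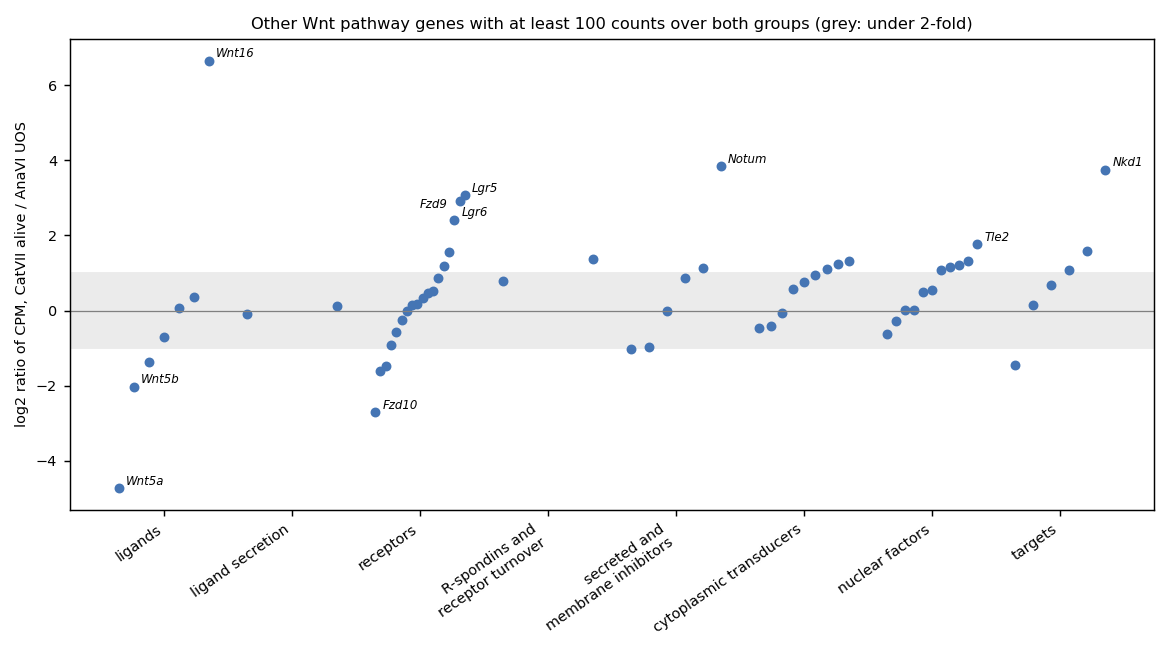
Log2 ratio of CPM between OSalive and UOS for the 61 other pathway genes that reached 100 counts in the pair, arranged by role. Each point is a gene, the grey band marks less than 2-fold, and names are given for ratios of 1.7 or more in size. Lgr5 (3.07) and Lgr6 (2.42) stand out among the receptors, and Wnt5a (-4.73) is the lowest point.

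Between OSapop and OSalive, 1 of the 60 listed genes with enough counts was at least 2-fold higher and 6 lower, beside 8.6% and 13% of all genes, with a median of -0.06. LOS had 10 of 53 higher and 9 lower than UOS, beside 14% and 14.5% of all genes, with Wnt5a (2.16) and Znrf3 (1.71) among the higher and Sostdc1 (-3.01) among the lower, and MOS had 5 of 52 in each direction, beside 9.38% higher and 18.9% lower among all genes, with Wnt9a (2.49), Apcdd1 (2.24) and Lgr5 (1.16) among the higher. The PhagoHFSC alive plates had 5 of 51 higher, including Lgr5 (2.90) and Znrf3 (1.19), and 16 lower, including Wnt5a (1 count, log2 ratio -5.46, -10.8 to -2.97), Sostdc1 (-2.43) and Lgr6 (-2.39), beside 13.6% higher and 30% lower among all genes.

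Cells were also examined for genes found together. At 50000 counts per cell the median cell held counts of 5 of the 10 genes in MOS, UOS, plate 1, OSalive and OSapop, of 4 in LOS, of 3 in plates 5 and 6 and of 1.5 in plate 2. Axin2 and Lef1 were found together in 5 of 86 UOS cells, where 16 had Axin2 and 10 had Lef1. In OSalive they were together in 17 cells, where 63 had Axin2 and 32 had Lef1. Independent detection would give 1.86 such cells in UOS and 16.4 in OSalive. Sfrp1 and Wnt7b were found together in 14 OSalive cells, where 82.1% had Sfrp1 and 25 cells had Wnt7b, against 20.5 cells under independent detection. These pairs are examples, the other pairs of the 10 genes are not shown, and no difference was tested. Cells of a group share a pool and its depth, and a missing count in a thinned cell does not show that the gene is silent.

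The genes whose level followed each member most closely over the 9 groups were taken from 10368 genes by the Pearson correlation of log2(CPM + 1), as a description over 9 points that share depth and stage. For Lgr4 they were Dop1b (r = 0.98), the polarity gene Scrib (0.97) and the Wnt coreceptor Lrp6 (0.95), and for Dkk3 the matrix gene Fbln1 (0.98), the prolactin receptor Prlr (0.98) and Moxd1 (0.97). For Sfrp1 they were Scrg1 (0.96), Sh3d19 (0.96) and the BMP-family ligand Gdf10 (0.95), and for Wnt10a the basement membrane collagen Col4a4 (0.98), Coq8a (0.98) and Papln (0.96). Ctnnb1 was followed by Dipk2a (0.97), Kctd12 (0.96) and Ttc3 (0.94), Axin2 by Arl2 (0.95), Zfp36l1 (0.93) and Platr25 (0.93), and Lef1 by Morc2a (0.94), Rhob (0.93) and Mettl8 (0.93). For Wif1 the nearest were the histone genes H3c11 (0.97), H3c13 (0.94) and H3c2 (0.93), for Wnt4 R3hdm1 (0.94), Zfp646 (0.94) and Ermard (0.93), and for Wnt7b Peg3 (0.94), Morf4l1 (0.94) and Terf2ip (0.94).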

How the data were processed

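The authors deposited 1 table of estimated counts per gene for 1036 of the 1037 cells in the labels. Per the study's methods and the submitters' processing notes, reads were aligned with STAR 2.6 to mm39, quantified with Salmon 1.4.0 and compiled in R 3.6.1, with Scanpy used downstream. The deposited estimated counts are not normalized and were not filtered for low-quality cells. The study ran qPCR to exclude wells with poor amplification or several cells, and no doublet caller was run here. The deposited cells still include wells with very few counts, such as those of plates 3 and 4. The table has 0 columns of no sample.

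Counts were rounded to whole numbers, and cells in which 2000 or more genes were detected entered. Rows were matched by identifier to GENCODE vM39 (GRCm39), which held 93.3% of the 55335 gene rows. The 92 spike-ins and identifiers outside the annotation were left out of the total. Counts were summed per sort or plate and divided by the annotated total to give CPM. A comparison took the genes that reached 100 counts in the pair, and 2-fold was the size used to count genes. A count of 0 was set to 3 in ratios. CPM have exact Poisson intervals, shares of cells Clopper-Pearson intervals and ratios exact binomial intervals, all at 95%. Since animals were pooled, no p-value, SE or set test was computed. Counts simulated with Poisson error alone were used to check the code of the ratios and intervals. They follow the model that the intervals assume, so they do not show how well it holds for these reads.

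Named genes were the 10 members, in each role of the pathway list the 2 genes with the highest CPM and over the list the 2 largest and 2 smallest ratios of OSalive to UOS, and the 3 genes most like each member among those at 20 CPM or more in a group, provisional Gm and Rik symbols left out. Marker genes are named where the tissue was checked. The members and all lists were chosen with earlier results of these data known. Cells led by other lineages were those in which the markers of the 5 other lineages together held more counts than the outer root sheath markers. Alternatives concerned the total, median-of-ratios and TMM factors, thinning, filters on cells and counts, equal weight of cells, single plates and single cells. Promoter sequence came from the GRCm39 genome. Python 3.11.15, numpy 2.4.6, pandas 2.3.3, scipy 1.17.1, matplotlib 3.10.9, R 4.3.3 and edgeR 4.0.16 (TMM only) were used.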

Additional observations from a re-analysis of the deposited data

Results flagged for a closer look

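Dkk3 had a log2 ratio of -4.067 between the cells titled apop and alive in the PhagoHFSC plates of CatVI (9 counts in plate 5) and of 0.09252 between OSapop and OSalive at CatVII. The difference between these ratios was not tested, since each sort is 1 sample.

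Signal was also seen in cells outside the comparisons. The 448 cells under 2000 detected genes in the 9 groups held 990349 annotated counts in all. Their summed levels were 302.9 CPM for Ctnnb1, 160.5 CPM for Dkk3, 150.5 CPM for Sfrp1 and 77.75 CPM for Lgr4. Axin2 was at 43.42 CPM, Wnt4 at 18.18 CPM, Lef1 at 15.15 CPM, Wnt7b at 13.13 CPM and Wnt10a at 6.058 CPM. Each lay above the 3.03 CPM that 3 counts would give there. Axin2 in such cells of plate 5 stood at 69.9 CPM, with 30 counts from 3 of 70 cells. In the cells of that plate that passed it was at 3.52 CPM, with 4 counts from 1 cell. The 1 cell whose labels name different stages had Ctnnb1 at 669.5 CPM, from 7 of its 10456 counts.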

How the results depend on the processing

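No paired analysis was possible because the cells of a stage were pooled and carry no replicate number that links groups. In OSalive against UOS the number of the 10 genes past 2-fold stayed between 5 and 6, and in OSapop against OSalive at 2, under every alternative run. Over 12 settings the log2 ratio of OSalive to UOS ran from 1.11 to 2.22 for Axin2, 1.08 to 2.03 for Lef1, -1.48 to -1.03 for Sfrp1, 2.62 to 3.30 for Wnt7b and 2.93 to 4.72 for Wif1. For MOS against UOS (3 genes), 5 were past 2-fold without the cells led by other lineages, an alternative chosen after seeing the data, as was thinning to 5000 counts. Counts moved by over 1.5 times only in the CatVI plates otherwise. For plate 5 against plates 1 and 2 (4 genes) they were 2 with cells thinned to 50000 counts, 2 of the 4 genes with enough counts against plate 1 alone and 7 with no minimum of counts. For plate 6 against plate 5 (0 genes) they were 3 with a minimum of 20 counts, 6 with none and 1 without the cell with the most counts. For plate 2 against plate 1 (1 gene) they were 3 thinned, 2 with a minimum of 20 counts, 2 with none, 2 with equal weight of cells and 2 without the cell with the most counts. Thinning leaves fewer cells and counts and a lower minimum admits more genes, and the cause was otherwise not tested. Scaling moved every ratio of a comparison by -0.37 (OSalive to UOS), -0.20 (MOS to UOS), 0.13 (OSapop to OSalive) or 0.17 (plate 2 to plate 1) with all gene counts as the total, by -0.30 (LOS), -0.14 (MOS) or -0.20 (PhagoHFSC alive) to UOS with TMM, by 0.13 with TMM for plate 5 to plates 1 and 2 and 0.16 for plate 2 to plate 1, and by 0.11, 0.12 and 0.44 with median-of-ratios factors for the last 3. Depth limits the CatVI plates most, where 3 counts, the value set for a 0, stand for up to 6.80 CPM, against 0.0540 CPM in OSalive.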

Other observations

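Plates 3 and 4, titled NonPhagoHFSC alive, held 872 and 2420 annotated counts in 67 and 57 cells. Of the 10 genes, Wnt10a had 1 count in plate 3, and plate 4 had none of any member.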
